A study of Mus musculus with 43 samples.

Results

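The neurotrophin genes described here are Bdnf, Ntf3 and Ntf5, which encode the ligands BDNF, NT-3 and NT-4, and Ntrk2, Ntrk3, Ngfr and Sort1, which encode receptors. They were chosen by name and not by a measured value, although earlier results of these data were known. Of the 7 listed genes, 6 had values among the 22622 gene identifiers of each table, and Ngfr was not analysed here. Transcripts were measured in inguinal white fat, a subcutaneous depot of the mouse, in 43 samples of 9 groups. Wild-type C57BL/6J mice were sampled at postnatal day 28 (P28) after housing at 22 C (n = 4) or 30 C (n = 4), and at 9 weeks at 22 C (n = 4) or 4 C (n = 4). Mice labelled TrkA-flox Th-cre were sampled at P28 and 22 C (n = 4), and were set against the wild-type mice of that age and temperature. Mice with floxed Bcl6 and no Cre were compared with Bcl6-flox Prx1-cre mice, on P25 at 22 C (n = 7 against n = 8) and at 9 weeks at 4 C (n = 4 against n = 4). Both groups of each Bcl6 comparison carried the floxed allele.

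Each design limits what a difference can be tied to. Th-cre is driven by the promoter of tyrosine hydroxylase, the first enzyme of catecholamine synthesis, and Prx1-cre by that of a limb mesenchyme gene, so neither acts in adipocytes alone. The Th-cre mice had no floxed littermates as controls, so allele, Cre and breeding cannot be told apart. The tissue is a mixture, in which fewer cells of a type and less RNA per cell cannot be told apart. The adipocyte genes Adipoq and Plin1 were read in every library, whereas Th was at 0 in all 4 wild-type libraries at P28 and 22 C. The Bcl6 total rose from 825 ± 340 (SD, n = 7) to 2714 ± 584 (n = 8) normalized counts in libraries labelled Prx1-cre at P25 and from 1995 ± 392 to 11609 ± 2339 (n = 4 each) at 9 weeks. A gene total does not show which exons were read, so it does not check the deletion. The shallowest library, at P28, held an estimated 3502000 reads and the deepest, at 9 weeks in a Bcl6 group, 30760000. The transcript Xist was high in some libraries and low in others of every group except the 9-week Bcl6 groups, where all 8 libraries had it high.

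Neurotrophins are small secreted growth factors that are made as longer proproteins and cut by proteases. BDNF and NT-4 bind the receptor tyrosine kinase TrkB, the product of Ntrk2, and NT-3 binds TrkC, the product of Ntrk3. Sortilin, the product of Sort1, binds proneurotrophins together with the p75 receptor and, in fat cells, also sorts vesicles that carry the glucose transporter Glut4. Adipose tissue is supplied by sympathetic axons, whose neurons depend on neurotrophins made by the tissues they reach, and NT-3 is made in the walls of blood vessels. Ntrk2 and Ntrk3 also make shorter receptors that lack the kinase, and a gene total does not tell the forms apart.

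The starts of Ntf3 and Ntrk2 are shown because both genes were higher in the same 9-week comparison. The sequences are from RefSeq on GRCm38.p6, in lower case, with GC boxes (GGGCGG on either strand) in capitals, and only bases before an annotated start are printed. The Ntf3 stretch, chr6:126164961-126165210 on the minus strand, lies before the inner start of the gene and inside an intron of its longer transcripts, and the Ntrk2 stretch, chr13:58806319-58806471 on the plus strand, lies just before the gene.
Ntf3: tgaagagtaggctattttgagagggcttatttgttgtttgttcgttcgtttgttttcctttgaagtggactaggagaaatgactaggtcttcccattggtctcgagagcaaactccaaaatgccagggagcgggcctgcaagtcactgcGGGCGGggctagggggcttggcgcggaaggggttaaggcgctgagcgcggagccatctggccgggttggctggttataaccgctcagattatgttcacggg
Ntrk2: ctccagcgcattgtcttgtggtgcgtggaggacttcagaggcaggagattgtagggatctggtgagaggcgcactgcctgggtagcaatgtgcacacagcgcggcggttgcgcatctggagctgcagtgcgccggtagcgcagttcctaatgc
The Ntf3 stretch of 250 bases held 1 GC box and the Ntrk2 stretch of 153 bases held 0. Among 32851 RefSeq promoters, 32.7% held a GC box in the 250 bases before the start and 17.1% in the outer 153 of those bases, which is where the Ntrk2 stretch lies from a later RefSeq start. The letters TTCNNNGAA, the core that Stat factors and Bcl6 are known to bind, were in neither stretch, against 7.02% and 4.49% of promoters. A match or its lack describes these letters in these windows only.

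On the GRCm38 annotation of GENCODE release M21, the ligand genes lie at chr2:109674700-109727043 (Bdnf, plus strand), chr6:126101412-126166772 (Ntf3, minus) and chr7:45413695-45417179 (Ntf5, plus), and the receptor genes at chr13:58806472-59133970 (Ntrk2, plus), chr7:78179986-78581034 (Ntrk3, minus) and chr3:108283974-108361519 (Sort1, plus). Levels of different genes were compared per kilobase of their merged exons. Sort1 was the highest of the 6 in all 10 group means of the 5 tables, between 323 and 2153 normalized counts per kilobase on average. Ntrk2 came second in all 10, between 50.7 and 432, and Ntf3 was the third in all 10 by this measure, between 4.47 and 47.7. The ranges of Sort1 and Ntrk2, and those of Ntrk2 and Ntf3, were apart in every group. Below Ntf3 the order of Bdnf, Ntf5 and Ntrk3 changed from group to group, and the ranges of the genes ranked 4 and 5 overlapped in all 10. Ntrk3 was between 0.125 and 2.25 normalized counts per kilobase, so TrkB transcript exceeded TrkC transcript throughout. The place of Ntf3 above Ntrk3 depends on the lengths used. Merged exons came to 30.17 kb for Ntrk3, from 20 transcripts, and to 1.714 kb for Ntf3, from 3. In normalized counts not divided by length, Ntrk3 exceeded Ntf3 in some group means and not in others. The means were 53.9 and 27.5 in P25 floxed libraries, and 67.8 and 81.8 in 9-week Prx1-cre libraries. Tables were scaled separately, so levels are ordered within a table only.

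**Figure D1:**
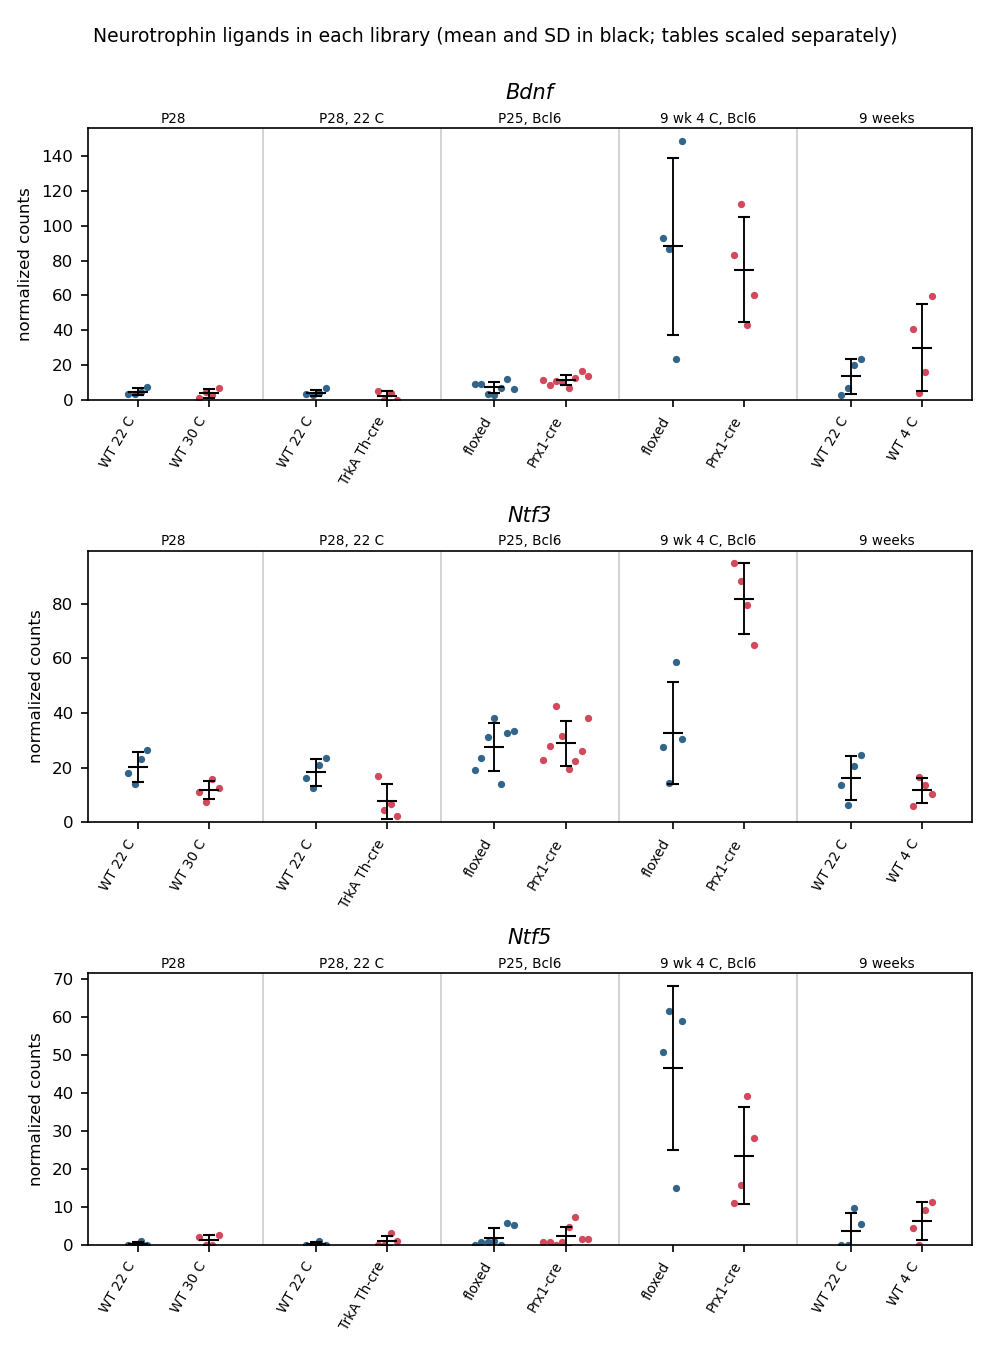
Normalized counts of the ligand genes Bdnf, Ntf3 and Ntf5 in each library (points), with the group mean and SD in black; the 5 panels of a row are separately scaled tables. Ntf3 in the 9-week Prx1-cre libraries sits between 65.0 and 94.6, above the 4 floxed libraries, and Bdnf and Ntf5 are near 0 at P28.

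**Figure D2:**
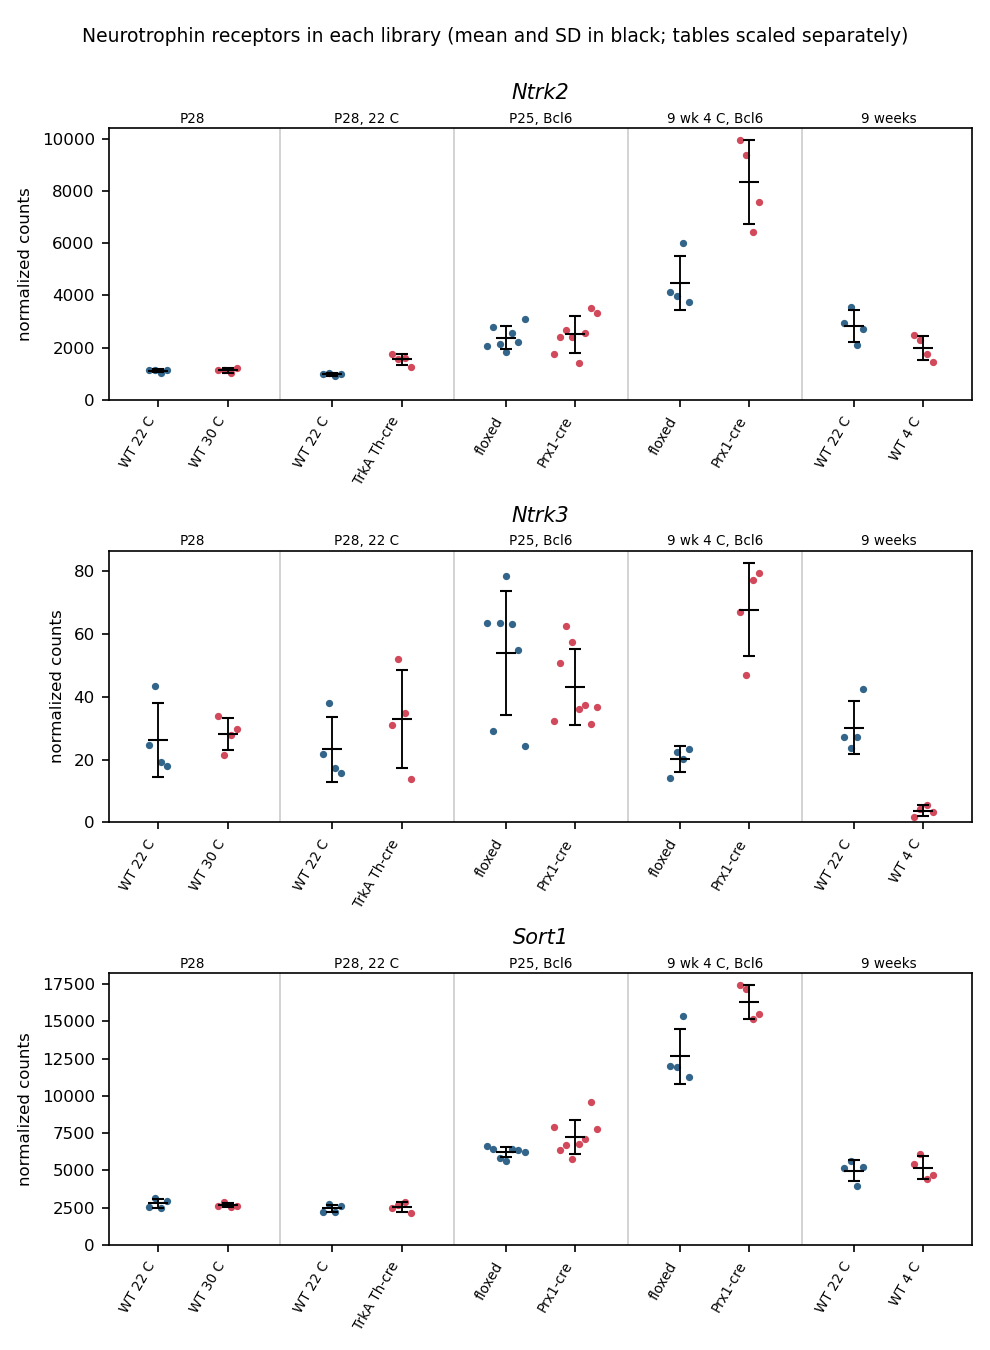
Normalized counts of the receptor genes Ntrk2, Ntrk3 and Sort1 in each library (points), with the group mean and SD in black; the 5 panels of a row are separately scaled tables. Ntrk3 lies between 47.1 and 79.4 in 9-week Prx1-cre libraries, above the floxed libraries of that table, and between 1.65 and 5.63 in wild-type libraries at 4 C.

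Of the 5 calls made among these genes, 3 were between Bcl6 genotypes at 9 weeks and 4 C. All 6 measured genes were tested in that table, and 3 of them, Ntf3, Ntrk2 and Ntrk3, were higher in libraries labelled Prx1-cre by limma at an adjusted p under 0.05. Of the 13496 genes tested there, 14.5% were called, 9.01% as higher and 5.46% as lower, and 22.3% of genes had groups that did not overlap. The median log2 fold change of the 6 genes was 0.64, against -0.02 over all genes tested.

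Among the ligands, Ntf3 had 27.4, 14.4, 58.8 and 30.3 normalized counts in the floxed libraries and 94.6, 88.2, 79.3 and 65.0 in the Prx1-cre libraries. The groups did not overlap, although floxed replicate 3 came close to the lowest Prx1-cre library. The log2 fold change was 1.45 ± 0.37 (SE, adjusted p = 0.0354). The call was lost without any 1 of 7 libraries, with adjusted p values from 0.0576 to 0.0962, and without floxed replicate 3 the adjusted p was 0.00323.

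Ntf5, the other TrkB ligand beside BDNF, went the other way in its means. It had 50.8, 61.4, 15.0 and 58.8 normalized counts in floxed and 11.03, 15.6, 39.2 and 28.04 in Prx1-cre libraries. The groups overlapped through floxed replicate 3 alone. Epithelial genes summed to 3554 in that library and 39308 in the highest floxed library, and to 8117 to 19055 in Prx1-cre libraries, and their part in Ntf5 was not tested. The log2 fold change was -0.93 ± 0.53 with an adjusted p of 0.279, and -1.39 with an adjusted p of 0.0339 without that library. Bdnf ranged from 23.7 to 149 in floxed and from 43.0 to 113 in Prx1-cre libraries, with a log2 fold change of -0.06 (95% interval -1.29 to 1.16), too wide to place the genotypes within 2-fold of each other.

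Among the receptors, Ntrk3 differed most. Its values were 14.2, 22.3, 20.3 and 23.6 normalized counts in floxed libraries and 67.1, 47.1, 77.4 and 79.4 in Prx1-cre libraries. The lowest Prx1-cre library was above every floxed library, and the log2 fold change was 1.70 ± 0.24 (SE, adjusted p = 0.00366). Every one of the 8 leave-out fits called it, with adjusted p values between 0.00313 and 0.0146.

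Ntrk2 had 4131, 3984, 6007 and 3755 normalized counts in floxed and 9953, 9379, 6445 and 7582 in Prx1-cre libraries. Floxed replicate 3 was again the nearest to the other group, and the groups did not overlap. The log2 fold change was 0.90 ± 0.18 (SE, adjusted p = 0.0140). Sort1 was 12002, 11965, 15353 and 11243 in floxed and 17430, 17151, 15131 and 15484 in Prx1-cre libraries. These overlapped in floxed replicate 3 only, and the log2 fold change of 0.37 ± 0.11 had an adjusted p of 0.0583, which became 0.00496 without that library and 0.00631 with quantile scaling of all libraries (log2 fold change 0.43), and 0.00664 once skeletal muscle was a covariate (0.57).

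Floxed replicate 3 differed from the other libraries in its mix of cells. Its summed level of 12 skeletal muscle genes was 540723 normalized counts, against 2444 to 23335 in the other floxed and 187 to 4794 in the Prx1-cre libraries. Without it 5 of the 6 genes were called: Ntf3, Ntrk2, Ntrk3 and Sort1 as higher and Ntf5 as lower. Calls over the whole table rose as well, to 3548 of 13622 genes from 1953 of 13496. Leaving out any 1 of the other 7 libraries gave 2 calls among the 6 genes. Adding the muscle score to the model also gave 5 calls, with 2835 of 13496 genes called over the whole table. Macrophage genes moved with the genotype: 9 of 12 rose and 0 fell, and their summed level was 11217 to 15189 in floxed and 19439 to 32672 in Prx1-cre libraries. Endothelial genes were higher in 3 of 12, with sums of 20868 to 35275 and 38134 to 40778, whereas Schwann cell sums overlapped, at 14801 to 21376 and 19533 to 22372. Of 16 tested Schwann genes Scn7a rose by 0.68 and S100b fell by 1.32 on the log2 scale. Of 12 tested genes of smooth muscle and pericytes, the cells of vessel walls, Rgs5 rose by 0.74 and Pdgfrb by 0.43 and Cspg4 fell by 0.82, with sums of 15510 to 34788 in floxed and 15978 to 17570 in Prx1-cre libraries. The part of these cells in the neurotrophin differences was not tested.

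The rest of the pathway was read from 64 genes in 5 lists, of which 61 were measured and 51 tested at 9 weeks in the Bcl6 table. There 6 rose and 3 fell, where 9.01% of all genes tested were called as higher and 5.46% as lower. The median log2 fold change of the 51 was -0.01, close to that of all genes. Of 8 tested proneurotrophin proteases and their inhibitors 3 rose. Among them was Pcsk5, a proprotein convertase, with a log2 fold change of 1.16 (adjusted p = 0.00141). It went from 536 ± 27.9 to 1212 ± 230 normalized counts (SD, n = 4 each). The convertase Pcsk6 had a log2 fold change of 0.51 (adjusted p = 0.00158).

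Among 12 tested p75 partners, Maged1, which binds the p75 receptor, and Arhgdia, an inhibitor of small GTPases, rose by log2 fold changes of 0.38 and 0.43 (adjusted p = 0.0439 and 0.0169). Of 16 tested adaptors and effectors that carry signals from Trk receptors, 1 fell, Crkl, with a log2 fold change of -0.26 (adjusted p = 0.0384). Among 14 tested genes of other neurotrophic factors and receptors, Ret, the receptor kinase of the GDNF family, rose from 224 ± 50.1 to 606 ± 236 (SD, n = 4 each). In that list Nrg4, a ligand of ErbB receptors, and Cntfr, a receptor of ciliary neurotrophic factor, fell by 0.81 and by 1.09 on the log2 scale (adjusted p = 0.00191 and 0.00764).

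The same allele pair at P25 and 22 C gave no call by limma among the 5 genes tested, in a table where 3.53% of 12738 genes were called. The unadjusted limma p was 0.0342 for Bdnf, 0.0473 for Sort1 and 0.326 to 0.816 for the other genes tested. The share of all genes at an unadjusted p under 0.05 is not given here. Bdnf ran from 2.92 over a median of 6.87 to 12.2 normalized counts in 7 floxed libraries and from 6.94 over 11.2 to 16.7 in 8 Prx1-cre libraries. These overlapped, and the log2 fold change was 0.69 ± 0.30 (SE, adjusted p = 0.276). Only 1 floxed library reached 10, the filter for testing, against 6 Prx1-cre libraries.

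Sort1 at P25 ran from 5647 over 6392 to 6642 in floxed and from 5784 over 6938 to 9581 in Prx1-cre libraries, with a log2 fold change of 0.20 ± 0.09 (adjusted p = 0.324). Ntf3 had a log2 fold change of 0.10 (95% interval -0.40 to 0.59), Ntrk2 of 0.04 (-0.33 to 0.41) and Ntrk3 of -0.26 (-0.80 to 0.28). Ntf5 reached 10 in 0 libraries. Of 46 tested pathway genes 0 were called, against 3.53% of all genes tested. Ret had an adjusted p of 0.0557 for a log2 fold change of 0.41.

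The intervals at P25 and 9 weeks can be set side by side, but age and housing temperature differed together between the Bcl6 tables. Xist differed with them: it was high in 7 and low in 8 libraries at P25. At 9 weeks it was high in every library, 4 of each genotype. The 9-week genotype effect exceeded that at P25 by 1.96 ± 0.35 (SE) on the log2 scale for Ntrk3, by 0.86 ± 0.25 for Ntrk2 and by 1.35 ± 0.44 for Ntf3. Tested as differences over 12487 genes, none of the 3 passed, with adjusted p values of 0.414, 0.608 and 0.651, and 0% of all genes did. Their unadjusted p values were 0.000403, 0.00829 and 0.0141, and 871 genes had an unadjusted p under 0.05.

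**Figure D3:**
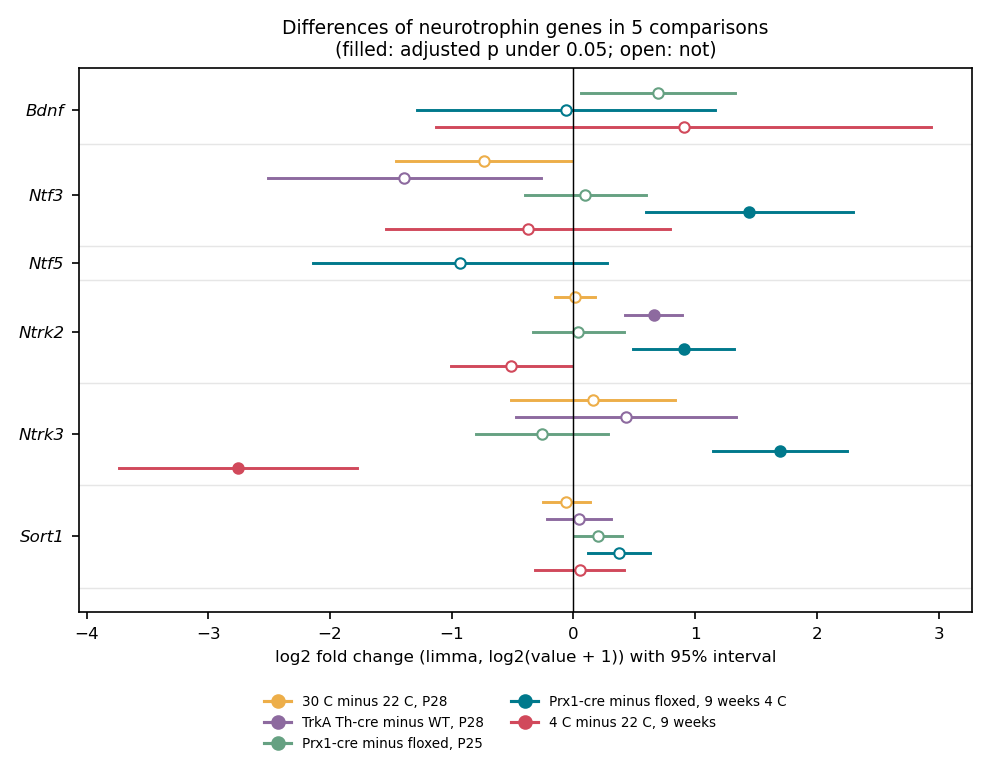
Log2 fold changes of the 6 measured genes (rows) on the log2(value + 1) scale with 95% intervals, in the comparisons in which each was tested (colours); filled points have an adjusted p under 0.05. The filled points are Ntf3, Ntrk2 and Ntrk3 for 9-week Prx1-cre, Ntrk2 for TrkA Th-cre, and Ntrk3 for 9 weeks at 4 C.

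In adult wild-type mice, 4 C and 22 C differed in Ntrk3. It had 27.4, 23.8, 27.2 and 42.6 normalized counts at 22 C and 1.65, 4.31, 5.63 and 3.46 at 4 C. The highest library at 4 C was well below the lowest at 22 C, and each library at 4 C held between 1.80 and 4.83 reads by the estimated worth of a read. The log2 fold change was -2.76 ± 0.43 (SE, adjusted p = 0.0215, 95% interval -3.73 to -1.78). It was the 1 gene called of 5 tested, in a table where 4.47% of 12118 genes were called, 2.44% as lower, and 17.3% of genes had groups that did not overlap.

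Ntrk3 entered the test through the 22 C group alone, where 4 libraries reached 10 and 0 did at 4 C, so it could be tested only by differing. With no filter its adjusted p was 0.0228. Leaving out 22 C replicate 1, 2 or 4 or 4 C replicate 1 raised the adjusted p to between 0.0543 and 0.0701, with log2 fold changes of -2.50 to -2.86.

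Genes of Schwann cells, the glia of peripheral nerve, moved with Ntrk3. Of 15 tested, 4 fell and 0 rose, among them the myelin genes Mbp by 1.00, Prx by 0.98 and Pmp22 by 0.79 on the log2 scale. The summed level of 18 Schwann genes was 7923 to 9271 normalized counts at 22 C and 4762 to 5141 at 4 C, with Gfap at 0 in all libraries at 22 C. Of 12 tested genes of smooth muscle and pericytes 2 fell, Rgs5 by 1.09 and Cspg4 by 1.44, with sums of 7165 to 9787 and 4318 to 7471. The median log2 fold change of the 12 was nevertheless 0.17, against 0.02 over all genes tested. Their scores, the mean log2(value + 1), overlapped, at 7.13 to 9.11 at 22 C and 7.37 to 8.76 at 4 C. Endothelial sums were 9001 to 11345 at 22 C and 6153 to 7503 at 4 C, and 2 of 11 tested genes fell. Sums of 12 genes of neurons and sympathetic axons were 71.2 to 112 and 56.3 to 74.3, with 0 of the 3 tested genes called. The part of these cells in the Ntrk3 difference was not tested.

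Ntrk2 in adult wild-type mice was 2937, 3570, 2101 and 2699 at 22 C and 2478, 2282, 1759 and 1439 at 4 C. The groups overlapped, and the log2 fold change of -0.51 ± 0.21 had an adjusted p of 0.189, or 0.0240 with the Xist class as a covariate. Bdnf had 3.04, 7.10, 20.1 and 23.5 at 22 C and 40.6, 3.86, 16.2 and 59.5 at 4 C. Its spread within each temperature was wider than the difference, a log2 fold change of 0.91 (95% interval -1.13 to 2.94).

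For Ntf3 the log2 fold change was -0.37 (-1.54 to 0.79) and for Sort1 0.05 (-0.31 to 0.42). Ntf5 was under the filter, at 0, 0, 9.68 and 5.40 at 22 C and 4.51, 0, 9.23 and 11.4 at 4 C (two-sided exact permutation test, p = 0.657; the smallest p for 4 against 4 is 0.0286). Of 44 tested pathway genes 1 rose and 1 fell, where 4.47% of all genes tested were called. Sos1, an exchange factor for Ras, rose by 0.45 on the log2 scale (adjusted p = 0.0419). Gfra4, a co-receptor of the GDNF family, fell by 1.33 (adjusted p = 0.0465).

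At P28 the wild-type mice at 30 C and 22 C differed in none of the 4 genes tested by limma, in a table with 4.45% of 12283 genes called. The unadjusted limma p was 0.0453 for Ntf3 and 0.505 to 0.836 for the other genes tested. As at P25, the share of all genes at an unadjusted p under 0.05 is not given here. Ntf3 had 17.9, 13.98, 23.0 and 26.3 normalized counts at 22 C and 11.2, 7.54, 15.8 and 12.8 at 30 C. The ranges overlapped between 13.98 and 15.8, and the log2 fold change was -0.74 ± 0.32 (SE, adjusted p = 0.243).

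Receptor transcripts at P28 were close between the temperatures. Ntrk2 was 1132, 1159, 1027 and 1139 at 22 C and 1134, 1129, 1014 and 1233 at 30 C. Its log2 fold change was 0.02 (95% interval -0.15 to 0.18), the narrowest interval of a neurotrophin gene. Sort1 had -0.06 (-0.25 to 0.13) and Ntrk3 0.16 (-0.51 to 0.84). Bdnf held between 1.01 and 8.38 reads per library and Ntf5 between 0 and 2.52 normalized counts, and neither passed its test (two-sided exact permutation tests, p = 0.457 and 0.429). Of 47 tested pathway genes 1 was called, against 4.45% of all genes tested. This was Ret, which fell by 0.84 on the log2 scale (adjusted p = 0.0320), from 87.3 ± 12.5 to 48.6 ± 9.36 (SD, n = 4 each).

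The temperature effect on Ntrk3, as colder minus warmer, was -0.16 at P28, between 22 C and 30 C, and -2.76 at 9 weeks, between 4 C and 22 C. The temperatures and ages differ between these comparisons, and no library is shared. The difference of the effects was -2.59 ± 0.52 (SE, unadjusted p = 0.000886, adjusted p = 0.0796) in a test where 0.138% of 11618 genes passed. Ntf3 had effects of 0.74 and -0.37, and the difference of -1.11 ± 0.60 had an adjusted p of 0.418.

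In TrkA-flox Th-cre mice at P28, Ntrk2 was the 1 gene called of 4 tested, where 2.66% of 11899 genes were called, 1.34% as higher, and 11.2% of genes had groups that did not overlap. It had 996, 1012, 908 and 999 normalized counts in wild-type and 1772, 1573, 1615 and 1272 in Th-cre libraries. The groups did not overlap. The log2 fold change was 0.66 ± 0.11 (SE, adjusted p = 0.0137), and all 8 leave-out fits called it, with adjusted p values between 0.00132 and 0.0492.

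Muscle and macrophage genes moved with this genotype. Skeletal muscle genes rose in 3 of 11 tested, with sums of 311 to 863 in wild-type and 1159 to 6190 normalized counts in Th-cre libraries. Adding the muscle score to the model took the Ntrk2 log2 fold change to 0.51 and its adjusted p to 0.419. That score, the mean log2(value + 1) of 12 genes, was 3.98 to 4.70 in wild-type and 5.37 to 7.75 in Th-cre libraries. The genotypes did not overlap in it, so this fit cannot tell muscle and genotype apart. Over all genes it called 16, against 317 without the score. Macrophage genes rose in 4 of 11 tested, with sums of 4117 to 5566 and 7140 to 8858. Schwann genes fell in 2 of 15 tested, Cdh19 and Pllp, with sums of 4805 to 6578 and 3615 to 4743, and Gfap at 0 in all Th-cre libraries. Sums of 12 genes of neurons and sympathetic axons were 88.6 to 137 in wild-type and 59.8 to 70.4 in Th-cre libraries, with 0 of the 2 tested genes called. Of 12 tested genes of smooth muscle and pericytes 2 fell, Kcnj8 by 0.77 and Notch3 by 0.56 on the log2 scale, with sums of 4437 to 5784 and 3615 to 4565. The median log2 fold change of the 12 was -0.04, against -0.01 over all genes tested. Sums of 10 adipose progenitor genes were 4486 to 5343 and 5378 to 6138, with 0 of 10 called. The part of muscle in the Ntrk2 difference cannot be told apart from genotype, and that of the other cells was not tested.

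Ntf3 in this table was 16.1, 12.5, 20.8 and 23.6 in wild-type and 16.8, 4.70, 6.83 and 2.31 in Th-cre libraries. Th-cre replicate 1 lay among the wild-type libraries and the other 3 lay below them all, and the log2 fold change of -1.39 ± 0.50 had an adjusted p of 0.176. With the muscle score in the model it was -2.79, with an adjusted p of 0.251. Ntrk3 had a log2 fold change of 0.43 (95% interval -0.47 to 1.33) and Sort1 of 0.05 (-0.22 to 0.31). Bdnf and Ntf5 were under the filter (two-sided exact permutation tests, p = 0.314 and 0.429). The wild-type libraries here are the same 4 that served at 22 C in the temperature comparison, so the values of Ntf3 in both tables are not independent.

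Of 46 tested pathway genes in the Th-cre table, Pcsk5 rose and Pcsk6 fell, where 2.66% of all genes tested were called. Pcsk5 went from 166 ± 9.71 to 281 ± 38.6 normalized counts (SD, n = 4 each), or 0.75 as a log2 fold change (adjusted p = 0.0122). Pcsk6 went from 406 ± 61.0 to 100.1 ± 101 (SD, n = 4 each), or -2.48 as a log2 fold change (adjusted p = 0.0374).

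Ntf5 transcript, from a ligand gene that was at or near 0 in many libraries, is given beside Xist and epithelial genes. In the P25 table, libraries with low Xist held 0 to 1.00 normalized counts of Ntf5 (n = 8) and libraries with high Xist 0 to 7.39 with a median of 4.76 (n = 7). Their scores of 11 epithelial genes, the mean log2(value + 1), were 4.22 to 5.30 and 5.55 to 7.17. At P28 no library held more than about 3 reads of Ntf5, which a 0 also allows. These libraries can therefore not be ranked by Ntf5 against the epithelial score. The wild-type library with the most Ntf5, 2.52 in replicate 4 at 30 C, had a score of 2.49, and 3 libraries of that table with scores of 5.28, 5.42 and 5.96 had 0. A Th-cre library with a score of 2.01 had 1.08. In adult wild-type mice the 3 libraries with 0 Ntf5 had epithelial scores of 0.592, 1.46 and 3.54, and the 5 with Ntf5 had scores of 5.88 to 7.48. In the 9-week Bcl6 table the 3 floxed libraries with 50.8 or more Ntf5 had scores of 8.99 to 9.18, and floxed replicate 3, with 15.0, had 6.501. The 4 Prx1-cre libraries had scores of 7.20 to 8.18 and 11.03 to 39.2 Ntf5. The lowest of these thus had less Ntf5 than floxed replicate 3 at a higher score. One P25 floxed library, F2, had the highest epithelial score of its table and 0 Ntf5, which allows up to 3 reads. 

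**Figure D4:**
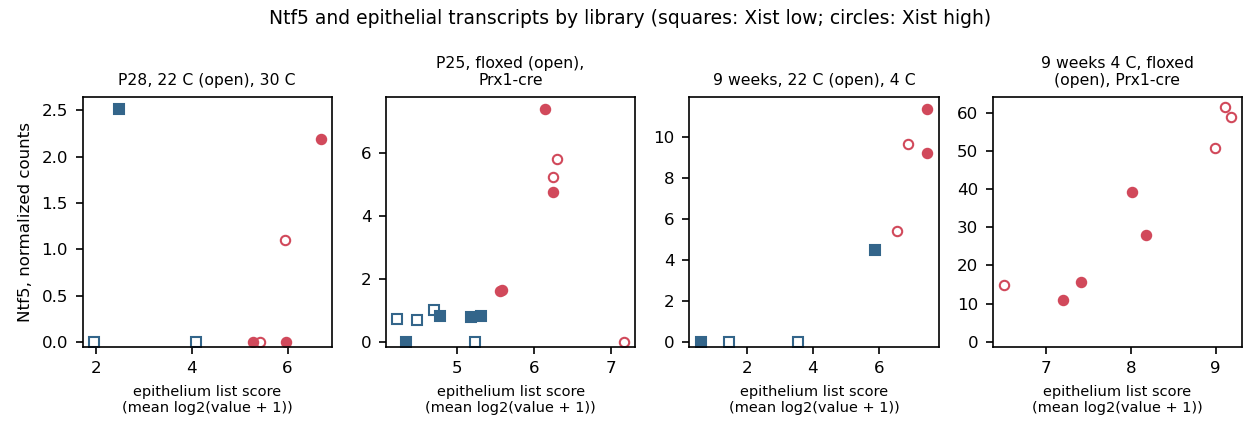
Ntf5 in normalized counts against the epithelium list score (mean log2(value + 1) of 11 genes) in each library of 4 separately scaled tables, with squares for low and circles for high Xist and open symbols for the first group of the panel. Libraries at 0 Ntf5 in adult wild-type mice have scores of 0.592 to 3.54, and the P25 library at the far right has a score of 7.17 and 0 Ntf5.

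The genes whose pattern was most like each receptor or ligand were ranked over 11563 genes in 4 tables (39 libraries). Pearson r of log2(value + 1) was taken within each table. The 4 values were averaged as Fisher z, which gives an r near 1 more weight, and turned back into r. For Ntf3 the most alike genes were Gucy1a1 (0.78) and Gucy1b1 (0.73), the subunits of soluble guanylate cyclase, and Gja4 (0.73), a connexin of blood vessels. For Ntrk2 they were Itgb5 (0.90), Ctsl (0.89) and Sparc (0.88), an integrin, a lysosomal protease and a matrix glycoprotein. For Ntrk3 they were Dock6 (0.84), Carmn (0.77) and Mapk8ip1 (0.77). For Sort1 they were Rhoq (0.88), Ctsb (0.87) and Extl3 (0.86), of which Rhoq is a small GTPase of the Glut4 pathway. Averaged in this way, Ntrk2 and Sort1 had an r of 0.73 with each other, and Ntrk2 and Ntrk3 of 0.38. For Ntrk2 and Sort1 the r was 0.98 in the 9-week Bcl6 table. It was 0.40, 0.37 and 0.55 in the P28 temperature, P25 and 9-week temperature tables. The libraries of a table share their groups and cell mix, so these values describe likeness only.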

How the data were processed

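Gene expression was measured in 43 libraries of flash-frozen mouse inguinal white adipose tissue, made with a stranded poly(A) kit per the labels' protocols. The deposited values are signal values, counts per gene that the authors normalized; the submitters' processing notes name kallisto, DESeq2 and mm10, with versions, annotation and settings not given in the sources used here. Each of the 5 tables was normalized on its own, and the 4 wild-type libraries at P28 and 22 C were deposited in each of the P28 tables. Columns were matched to groups by name, and P25 columns match a group but no sample title. Values are not whole numbers. The most frequent low value of a library was taken as 1 read, which puts depth at 3831000 to 6432000 reads in the P28 temperature table, 3502000 to 6431000 in the TrkA table, 4991000 to 15800000 at P25, and 16860000 to 30760000 and 6270000 to 8867000 in the 9-week Bcl6 and temperature tables. Within a tolerance of 0.02 reads, 6.61 to 74.3% of low values were whole multiples, so whole reads were not recovered and the adult estimates are rough.

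Genes were tested with limma 3.58.1 (R 4.3.3) with a mean-variance trend on log2(value + 1), provided that the number of libraries with 10 or more was no lower than the size of the smaller group. Benjamini-Hochberg adjustment ran over all tested genes of a table (threshold 0.05). Fold changes on this scale understate those of low genes. Members under the filter had exact permutation tests, 6 in all, with adjusted p of 0.669 throughout. Effects in separate tables were compared by the difference of log2 fold changes over its standard error, with a t reference. Python 3.11.15 made the summaries. On simulated data with 200 changed genes, 74.1, 70.8, 67.7, 71.6 and 36.6% of genes changed 2-fold were recovered in the P28 temperature, TrkA, P25, 9-week Bcl6 and 9-week temperature tables, over 12283, 11899, 12738, 13496 and 12118 genes. Of the 22622 identifiers, 21 matched no symbol in the RefSeq table.

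Members, gene lists and tests were chosen with earlier results of these data known. Named genes are the members, list genes past the threshold (up to 4 with the smallest p per list and comparison) and the 3 genes most alike to a member; Ret at P25 was named after its values were seen. Nothing says that replicates came from separate animals beyond their separate labels, so p-values reflect only sample-to-sample spread, which may be technical. Some genes that this rule or the design names are not reported here. No promoter sequence was matched for Sort1, Ntrk3 or Ntf5. Other scalings, filters, pseudocounts of 0.5 and 5, a muscle or Xist covariate, a replicate block and each library left out were tried.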

Additional observations from a re-analysis of the deposited data

Results flagged for a closer look

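The values of 6 genes were screened in the 9 groups for a library standing far from the others of its group; among 54 such screens, chance alone is set to mark about 1 in 20. In floxed Bcl6 mice at 9 weeks and 4 C, replicate 3 held 6007 normalized counts of Ntrk2, against 3755 to 4131 in the other 3. This library also had the highest muscle sum of its table. In wild-type mice at P28 and 22 C, replicate 3 held 1.098 normalized counts of Ntf5 and the other 3 held 0, which is about 1 read and below the 3 reads that a count of 0 allows.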

How the results depend on the processing

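Each count of called genes was recomputed under the other scalings, filters, pseudocounts, covariates and with each library left out. In the TrkA comparison the 1 call among the neurotrophin genes became 0 with the muscle covariate. In the 9-week Bcl6 comparison the 3 calls became 5 with the muscle covariate and 1 with a replicate block, 4 with quantile scaling (Sort1 added), 2 with a filter at 50, and 2 to 5 when 1 library was left out. In the 9-week temperature comparison the 1 call became 0 with a filter at 50, which Ntrk3 does not pass, 2 with the Xist covariate, and 0 to 1 when 1 library was left out. The test of the difference between effects called 1 gene for temperature (Ntrk3) and 2 for Bcl6 (Ntrk2 and Ntrk3) with a normal reference, against 0 and 0 with the t reference. The cause of these changes was not tested.

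Replicate numbers were not taken as pairs: correlations of same-numbered deviations ran from -0.662 to 0.768, no table had all of its pairs over 0.1, and not every sample correlated best with its own number in any table. At 9 weeks, between temperatures, 3 of 4 correlations were 0.501 to 0.768 and that of replicate 1 was -0.262, and the same number had the same Xist class in all 4 pairs, low in replicates 1 and 2 and high in 3 and 4. No block was run at P25, where column numbers match no sample title, and no Xist covariate in the 9-week Bcl6 table, where all libraries had Xist high. With a replicate block, the genes called over the whole table went from 547 to 236 for P28 temperature, 1953 to 1171 for 9-week Bcl6 and 542 to 1666 for 9-week temperature, and Ntf3 and Ntrk2 in the 9-week Bcl6 table had adjusted p of 0.0715 and 0.0576. Over the whole table, the muscle covariate gave 91, 16 and 1851 genes for P28 temperature, TrkA and 9-week temperature, against 547, 317 and 542 without it. For 9-week temperature the Xist covariate gave 2226 and no filter gave 356. With 1 library left out the counts were 176 to 714, 93 to 870, 288 to 666, 1055 to 3548 and 36 to 356 in the P28 temperature, TrkA, P25, 9-week Bcl6 and 9-week temperature tables.

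Uncalled log2 fold changes near 0 changed sign: Ntrk2 at P28 temperature was -0.098 with the muscle covariate and -0.029 to 0.065 with 1 library left out, Ntf3 at P25 was -0.017 with the muscle covariate and -0.049 to 0.18, and Sort1 in 9-week temperature was -0.053 with quantile scaling and -0.055 to 0.12. With 1 library left out the ranges were -0.11 to 3.2e-05 for Sort1 at P28 temperature, -0.020 to 0.13 for Sort1 in the TrkA table, -0.036 to 0.15 for Ntrk2 at P25, and -0.59 to 0.27 for Bdnf in the 9-week Bcl6 table. Precision is low for Bdnf and Ntf5 at P28, where a library holds 8.44 reads or fewer of either.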
